A study of Mus musculus with 4 samples.

Results

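Lrmda is a protein-coding gene of 1037 kb on mouse chromosome 14, from 22019504 to 23056093 on the plus strand in GRCm38. It was chosen by its number of H3K36me2 peaks, the highest of any gene over 2 deposited lists together, so that number is a description and is not tested here. Its members are all peaks that overlap the gene or the 100 kb on either side of it. There were 34 such peaks among 7699 in the list from melatonin-treated cells and 26 among 8361 in the list from untreated cells. Within the gene itself the counts were 29 with melatonin and 24 without.

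The cells were cultured mesenchymal stem cells (MSCs) of mouse marrow, stromal cells that can form bone, fat and cartilage. One library came from MSCs given 1 µM melatonin, the hormone of the pineal gland, for 24 hours, and one from untreated MSCs. Both were chromatin immunoprecipitation libraries (ChIP-seq) made with an antibody against histone H3 dimethylated at lysine 36, and each was called against its own input library, made without antibody. The series text speaks of old donors and of senescent MSCs, but the labels of these libraries give no age, strain, passage or number of animals. The treatment protocol names melatonin for every sample, and the untreated group rests on the treatment label alone. With 1 ChIP library per condition, all differences are between those libraries and have no replicate check. Peak lists do not measure expression, so the MSC label could not be checked against marker genes.

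H3K36me2 is a broad mark that enzymes such as NSD1, NSD2 and NSD3 lay down over intergenic sequence and over the bodies of genes. Lrmda encodes the leucine rich melanocyte differentiation associated protein. Loss of the human gene causes a form of oculocutaneous albinism, in which pigment cells make too little melanin. What the gene does in marrow stromal cells is not covered by that knowledge.

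The peak finder counted 14180076.5 tags with melatonin and 13198427.5 tags without, of which 1.12% and 1.24% lay in peaks. A peak is one or more windows of 1000 bp at least 4-fold over the input, and the file headers give a tag threshold of 18 with melatonin and 17 without. The tags listed for a finished peak can lie under that threshold, as low as 15.5 ChIP tags in an untreated peak of Lrmda. A peak missing from one list is no evidence that the mark was missing, since signal outside the peaks was not analysed here.

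At the start of Lrmda, a peak was called with melatonin alone. It spanned 22018466 to 22019466 and ended 38 bp before the first annotated base of the gene and 246 bp before the transcript start used for the promoter window of RefSeq (22019712, GRCm38.p6). The 300 bases of that window (chr14:22019462-22019761, plus strand, 5′ to 3′) are shown because this is where the peak meets the gene. The 5 capitals at the left end are the bases inside the peak, and the 6 capitals near the right end are a match to the motif CACGTG.

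Lrmda promoter: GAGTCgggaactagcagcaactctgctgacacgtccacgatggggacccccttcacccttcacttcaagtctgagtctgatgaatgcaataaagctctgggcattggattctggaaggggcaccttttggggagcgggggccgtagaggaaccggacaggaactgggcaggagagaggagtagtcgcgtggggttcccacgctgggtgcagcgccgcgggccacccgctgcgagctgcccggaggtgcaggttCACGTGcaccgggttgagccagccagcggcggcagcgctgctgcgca

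Such contact between a peak and a promoter window was rare in both lists. A melatonin peak overlapped 68 of 32619 promoter windows (0.208%) and an untreated peak 47 (0.144%). The nearest untreated peak lay 124 kb from the Lrmda window. The window held 64% G and C bases and 21 CG pairs, against medians of 53% and 7 over all windows. CACGTG, which reads the same on both strands and is an E-box, the kind of site that helix-loop-helix factors bind, occurred once, from base 254. It was found in 2348 of the windows (7.2%). A match of letters shows neither binding nor a cause.

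The promoter peak was itself modest. It had 12.3 normalized tags (the authors' ChIP tag count per 10000000 tags of the library), 2.5 input tags and a 6.09-fold excess over input, with a p of 6.92e-08 in the authors' list. All tags, folds and p-values of single peaks given here are the authors' own, and the p is a Poisson p over input without adjustment. Beyond it, toward the neighbouring gene Zfp503, which encodes a zinc finger protein, the melatonin list held 2 more peaks inside the 100 kb limit. They lay at 22009719 to 22011003 (16.2 normalized tags, 4.44-fold) and at 21974416 to 21975416 (13 normalized tags, 4.02-fold). The untreated list held none in that flank, and its last peak before Lrmda ended 728 kb away. The first melatonin peak outside the limit ended 113 kb before the gene, with 13 normalized tags and a 4.6-fold excess.

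The same contrast went on inside the gene, whose first 104 kb held 4 melatonin peaks and 0 untreated peaks. The first melatonin peak of the gene body started 5.26 kb from its start, at 22024765 to 22026072, with 18 normalized tags and a 5.54-fold excess. The next ones stood at 22038049 to 22039403 (19 normalized tags), 22046543 to 22047543 (12.7 normalized tags) and 22104729 to 22106423 (19 normalized tags). The peaks at 22038049 and 22046543 overlap Gm41107, a long noncoding RNA (lncRNA) gene inside Lrmda. The first untreated peak of the gene, at 22143291 to 22144291, started 124 kb from the gene start and had 12.1 normalized tags and a 4.1-fold excess. A count of 0 allows up to 3 peaks by counting error alone, close to the 4 of the melatonin list.

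**Figure D1:**
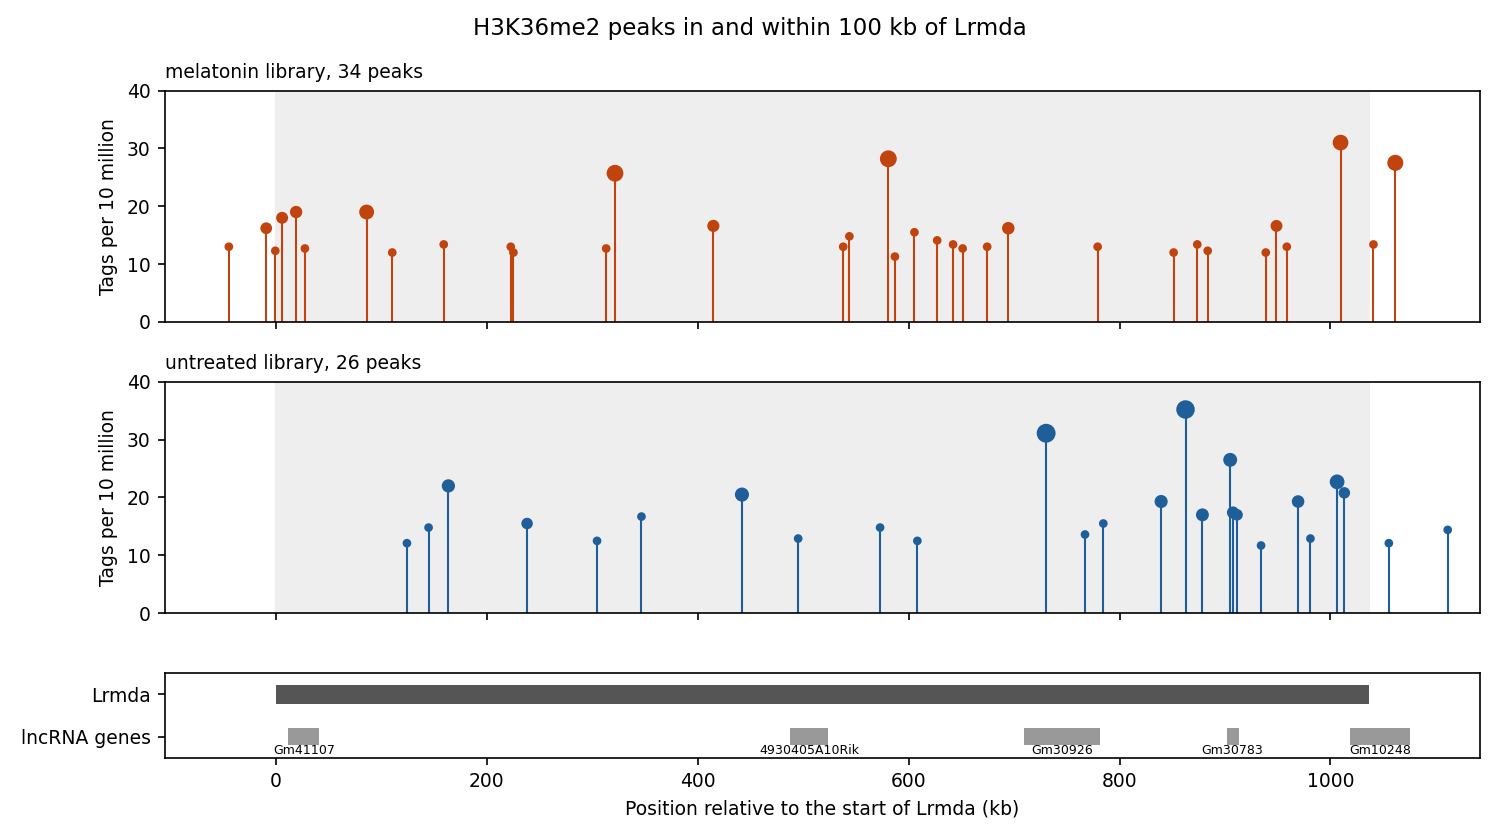
Peaks in and within 100 kb of Lrmda for the melatonin library (top) and the untreated library (below it), as authors' normalized tags against distance from the gene start in kb; the area of a point grows with the width of the peak and the shaded part is the gene. The melatonin list has peaks from before the gene start onward, while the first untreated peak stands 124 kb inside the gene and the 3 tallest untreated peaks stand from 729 kb onward.

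Along the gene, the highest counts of melatonin peaks fell in the middle and those of untreated peaks toward the far end. The counts per stretch are small, and whether they depart from an even spread was not tested. Divided into 10 equal stretches of 104 kb, the body held 4, 2, 2, 2, 1, 5, 5, 1, 3 and 4 melatonin peaks from start to end. The untreated peaks in the same stretches numbered 0, 3, 2, 1, 2, 2, 0, 3, 6 and 5. The first 5 stretches held 11 melatonin and 8 untreated peaks, and the last 5 held 18 and 16. The last 2 stretches alone held 7 melatonin and 11 untreated peaks, and the first 2 held 6 and 3. The libraries differed most in stretch 7, with 5 against 0, and in stretch 1, with 4 against 0.

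**Figure D2:**
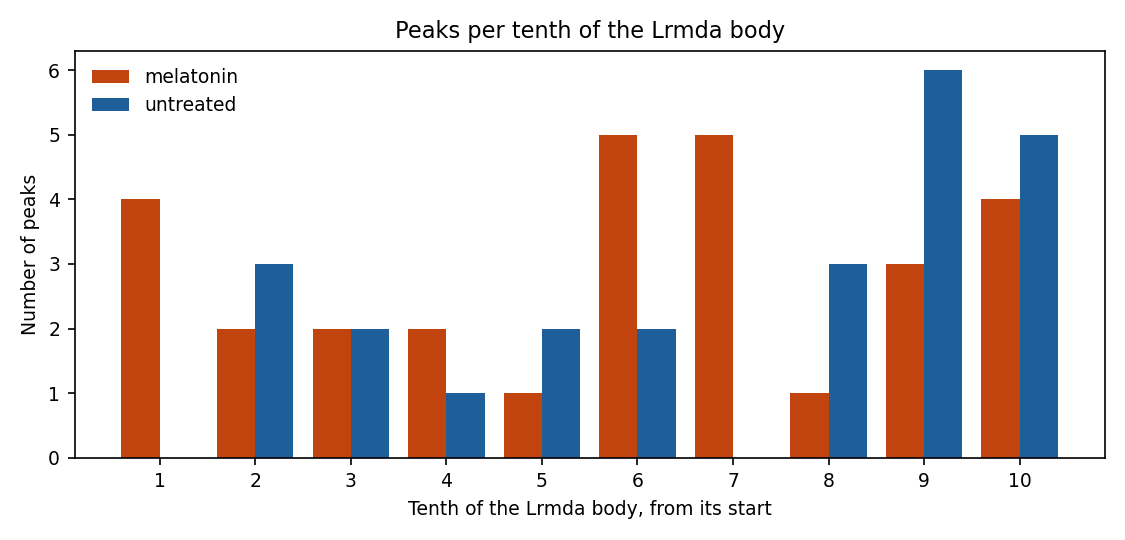
Number of peaks in each of 10 equal stretches of the Lrmda body, counted from its start, for the melatonin library (left bar) and the untreated library (right bar). Stretches 6 and 7 hold 5 melatonin peaks each, while stretches 9 and 10 hold 6 and 5 untreated peaks.

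In the middle of the gene, the melatonin list had a row of peaks, picked out after the values were seen. From 22599280 to 22714731 it held 8 peaks, starting 579.8 to 694 kb from the gene start, and 1 untreated peak lay among them. The first of them, at 22599280 to 22601282, was the widest melatonin peak of Lrmda at 2002 bp, with 28.2 normalized tags, 4.5 input tags and a 7.73-fold excess. It ranked 55th by tags among all 7699 melatonin peaks. The last 5 of the row, from 22646091 to 22714731, followed each other with no untreated peak between them, and had 12.7 to 16.2 normalized tags. The longest gap between untreated peaks of the gene fell here, 120.4 kb from 22628292 to 22748722, which held 5 melatonin peaks. The longest gap between melatonin peaks, 122 kb from 22435004 to 22556981, lay earlier in the gene and held 2 untreated peaks.

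Toward the end of the gene, the strongest untreated peaks stood. The peak at 22748722 to 22751099 was the widest of them at 2377 bp, with 31.1 normalized tags, 10.1 input tags and a 4.04-fold excess, just over the required 4. The peak at 22880931 to 22883232 had the most tags, 35.2 after normalization, over 7 input tags (6.62-fold), and ranked 16th among all 8361 untreated peaks. Its p over input in the authors' list was 1.65e-22. The melatonin peaks nearest to them lay 33991 and 9484 bp away. Then 3 untreated peaks in a row, starting at 22923667, 22926454 and 22930320, lay within 7.92 kb. They had 26.5, 17.4 and 17 normalized tags and fold excesses of 4.49, 5.9 and 7.21.

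That row of 3 falls on Gm30783, an lncRNA gene of 11.2 kb inside Lrmda whose function is not known from the sources used here. Gm30783 held 0 melatonin peaks and 3 untreated peaks. Its promoter window lay 25.1 kb from the nearest melatonin peak and 0.724 kb from the nearest untreated peak. Of the other lncRNA genes that overlap Lrmda, Gm41107 held 2 melatonin peaks and 0 untreated peaks, 4930405A10Rik held 0 and 1, Gm30926 held 1 and 2, and Gm10248, which reaches past the end of Lrmda, held 2 and 1, all past that end. The 3 pseudogenes inside Lrmda held none in either list. Lrmda shares its sequence with these genes, so a peak where they overlap cannot be assigned to one of them.

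Just before the end of Lrmda, both libraries marked one spot of 8.32 kb, from 23024992 to 23033316, without overlap. In its middle lay the strongest melatonin peak of the gene, at 23028176 to 23029993, with 31 normalized tags over 4.5 input tags (8.5-fold), 19th of the melatonin list by tags. Its p over input in the authors' list was 1.59e-22. An untreated peak stood on each side of it. The one at 23024992 to 23026665 had 22.7 normalized tags and a 5.13-fold excess, and the one at 23032057 to 23033316 had 20.8 normalized tags and a 7.83-fold excess, the highest fold of the untreated peaks of Lrmda. The gaps between them measured 1511 bp and 2064 bp. The peaks thus alternated between the libraries over a distance of a few window lengths.

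Beyond the gene end, each list held 2 peaks within 100 kb. With melatonin they lay at 23059807 to 23060807, 3.71 kb from the gene end (13.4 normalized tags over 1 input tag, 16.52-fold), and at 23080101 to 23081974 (27.5 normalized tags, 5.65-fold). Without melatonin they lay at 23074374 to 23075374 (12.1 normalized tags, 4.56-fold) and at 23130193 to 23131193 (14.4 normalized tags, 4.87-fold). The first peaks past the limit were a melatonin peak 130.4 kb from the gene end, with 14.8 normalized tags, and an untreated peak 212 kb away, with 14 normalized tags.

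No peak of Lrmda was shared by the libraries. Of the 29 melatonin peaks in the body 0 overlapped an untreated peak by 1 bp or more, where 6.12% of the whole melatonin list did, and of the 24 untreated peaks 0 overlapped a melatonin peak, where 5.6% of the whole untreated list did. Counts of this size allow shares of up to 10.3% of melatonin and 12.5% of untreated peaks (3 of the total, counting error only), and both limits lie above the shares of the whole lists. A lower overlap than elsewhere was therefore not detectable here. In the other protein-coding genes of 300 kb or more, 32 of 878 melatonin peaks (3.64%) and 31 of 992 untreated peaks (3.12%) overlapped. The peaks in the flanks did not overlap either.

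Peaks of the libraries lay within kilobases of each other at several places. A melatonin peak of the body lay a median of 13.5 kb from the nearest untreated peak, with a range of 1.51 to 117 kb, and an untreated peak a median of 10.8 kb from the nearest melatonin peak, with a range of 1.51 to 41.7 kb. Over the whole lists the medians were 24.5 and 25.6 kb, and over the other long genes 28.5 and 35.4 kb. Within 5 kb of a peak of the other library lay 7 of the 29 melatonin peaks and 7 of the 24 untreated peaks, and within 10 kb lay 11 of each. Such distances are shorter wherever peaks are dense, and they were not corrected for density. The distances also depend on the fold required, since with a fold of at least 6 the melatonin median was 277 kb.

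Read from start to end, the 53 peaks of the body formed 28 runs of peaks of one library, 14 for each. Of these runs, 14 held a single peak. Whether this number differs from that of a random order was not tested. The longest melatonin runs held 5 peaks and the longest untreated run held 4. Joined wherever less than 5 kb apart, the peaks made 40 clusters, of which 30 held a single peak and 6 held peaks of both libraries. Besides the spot near the gene end, the clusters of both libraries started at 22178173, 22624545, 22798267, 22892716 and 22953205. In the one at 22624545, the melatonin peak had 15.5 normalized tags and the untreated peak, 1747 bp further on, had 12.5.

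Counts of overlap in the next genes by number of peaks were too small to tell them from Lrmda or from one another. In Pard3b, which encodes a cell polarity protein, 2 of 16 melatonin peaks overlapped an untreated peak and 2 of 31 untreated peaks a melatonin peak. In Hdac9, which encodes a histone deacetylase, the counts were 3 of 22 and 3 of 21. Pde4d, a cyclic AMP phosphodiesterase gene, had 0 of 15 and 0 of 17, Immp2l, a gene for a mitochondrial inner membrane peptidase, 0 of 14 and 0 of 16, and Sugct 0 of 10 and 0 of 20. Median distances to the other library in Hdac9 were 11.5 kb for melatonin and 11.1 kb for untreated peaks, near those of Lrmda.

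**Figure D3:**
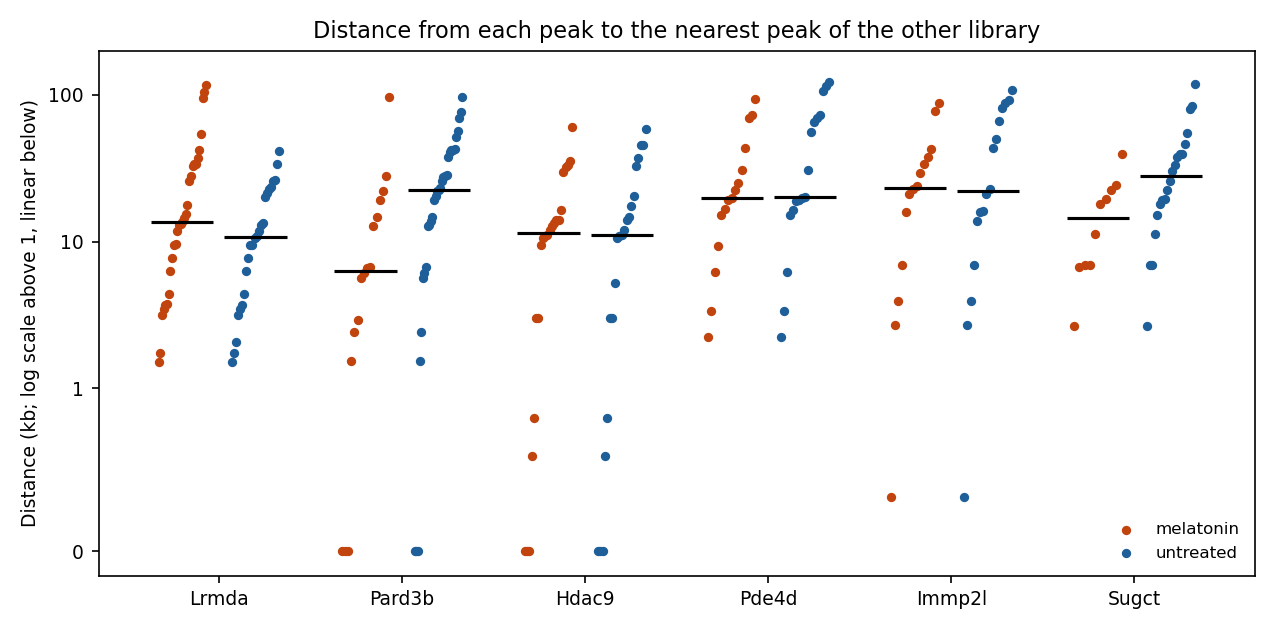
Distance in kb from each peak in a gene to the nearest peak of the other library, for Lrmda and the 5 genes that follow it in number of peaks; melatonin peaks stand on the left and untreated peaks on the right of each pair, black bars are medians, and 0 means overlap. Lrmda has no point below 1.51 kb, while Pard3b and Hdac9 have points at 0.

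Within one library, peaks of Lrmda followed each other at a median gap of 21 kb with melatonin and 24.8 kb without. The smallest gaps were 1529 and 1235 bp. Gaps of up to 5 kb numbered 3 of 28 with melatonin and 2 of 23 without, so most called peaks of one library stood alone. Whether the mark itself ran on between the called peaks cannot be told, since signal outside them was not analysed. The melatonin peaks covered 34.2 kb, or 3.3% of the gene body, and the untreated peaks 31.3 kb, or 3.02%.

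In median strength, the melatonin peaks of Lrmda were close to the rest of their list. They had 11.3 to 31 normalized tags, with a median of 13.4, the same as over the rest of the list. Their folds over input ran from 4.02 to 16.09 with a median of 5, against 5.11 in the rest of the list. A fold of at least 6 was reached by 12 of 29 (41.4%, exact 95% interval 23.5 to 61.1), where 30.1% of the list reached it. Of the 29 peaks, 20 had the smallest width of 1000 bp (69%, interval 49.2 to 84.7), against 79.2% of the rest of the list. Neither of these 2 shares departed from the list by more than its counting interval. The upper part ran higher, with an upper quartile of 16.6 normalized tags against 15.2 in the rest of the list. Of the 29 peaks, 4 measured 1500 bp or more (13.8%), against 6.19%. By tags, 3 of them ranked 19th, 55th and 98th among 7699. These differences were not tested.

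The untreated peaks of Lrmda had a higher median width than the rest of their list. Of these, 11 of 24 had the smallest width (45.8%, exact 95% interval 25.6 to 67.2), against 79.7% of the rest of the list and 81.7% of peaks in the other long genes. Their median width was 1258 bp, against 1000 bp in the rest of the list, and 5 of 24 measured 1500 bp or more (20.8%), against 6.35%. With the width went the tags, at a median of 16.9 after normalization and a range of 11.7 to 35.2, against a median of 13.6. Per kb of peak, the medians were close, at 13.4 normalized tags in Lrmda and 13.3 in the rest. The intervals cover counting error within 1 library only, and the gene was picked among all genes, so the width is a description.

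Untreated peaks of the smallest width made up 74.2% in Pard3b (interval 55.4 to 88.1), 76.2% in Hdac9 (52.8 to 91.8), 75% in Immp2l (47.6 to 92.7) and 70% in Sugct (45.7 to 88.1), the next genes in number of peaks. These intervals overlap that of Lrmda, and the differences were not tested. In Pde4d the share was 94.1% (71.3 to 99.9). In the melatonin list these shares ran from 60% in Sugct to 100% in Hdac9. The folds of the untreated Lrmda peaks were not raised with their width. They ran from 4.03 to 7.83 with a median of 4.81, against 4.87 in the rest of the list, and 4 of 24 reached a fold of 6 (16.7%, interval 4.74 to 37.4), where 24.1% of the list did.

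Each fold over input in Lrmda joined a moderate excess of ChIP tags to a shortage of input tags. Relative to the genome mean of the same library (over the genome size the peak finder assumed), ChIP tags per kb had a median of 2.6 in the melatonin peaks and 2.68 in the untreated peaks. Input tags per kb had medians of 0.486 and 0.53 of their genome mean. All 29 melatonin and all 24 untreated peaks lay below the genome mean of input, with highest values of 0.729 and 0.833. The required fold of 4 fixed this, since no peak exceeded 3.41 times the genome mean of ChIP tags. The rest of each list had the same medians of input, 0.486 and 0.53, so Lrmda did not stand apart. A window at the tag threshold of the headers with input at the genome mean would have had a fold of 2.54 with melatonin and 2.58 without, under the required 4.

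The melatonin peaks with the 2 highest folds rested on the fewest input tags of that list in Lrmda. The highest fold of the melatonin peaks in the body, 16.09, was at 22798267 to 22799267, with 13 normalized tags over 1 input tag. The next, 9.85, was at 22870314 to 22871314, with 12 normalized tags over 1.5 input tags. Both had a width of 1000 bp and ranked 4290th and 6875th in their list by tags. The next fold, 8.5, stood over 4.5 input tags, and the highest untreated fold, 7.83, over 3.5, where the untreated peak with the fewest input tags, 2.3, had a fold of 6.62. The part of low input in these folds was not tested.

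**Figure D4:**
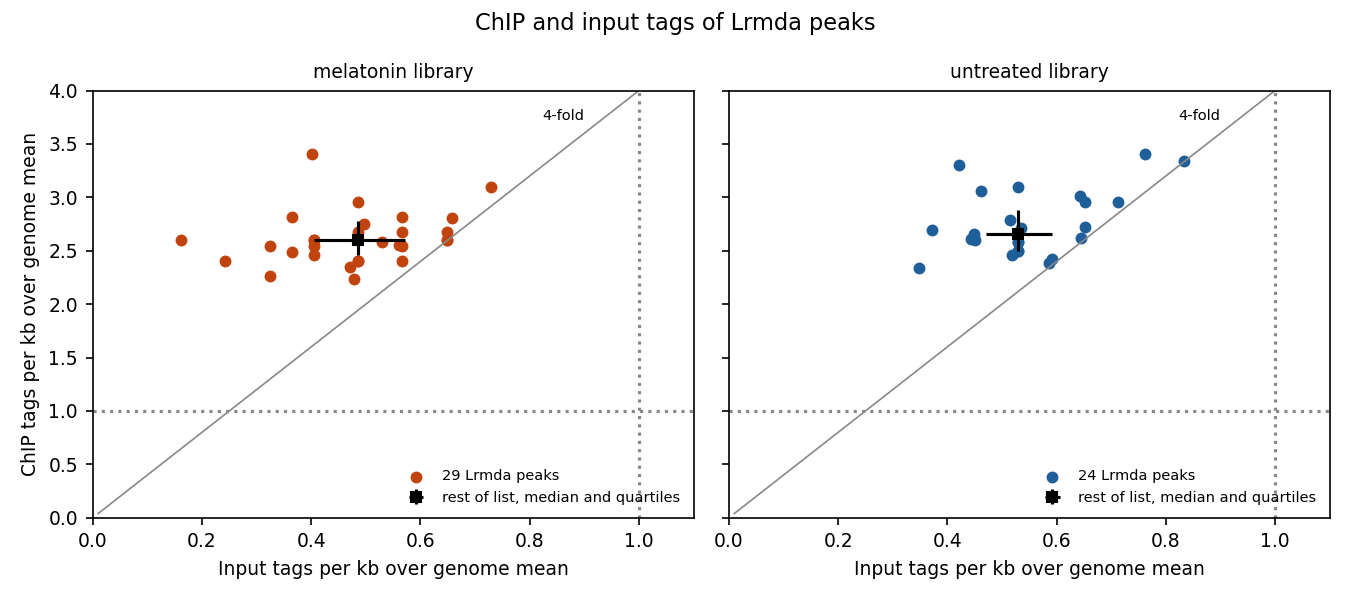
ChIP tags per kb against input tags per kb for the peaks of the Lrmda body, each divided by its genome mean, in the melatonin library (left) and the untreated library (right); dotted lines mark the genome mean, the slanted line a fold of 4, and the square with bars the median and quartiles of the rest of each list. All 29 melatonin and 24 untreated peaks lie left of the genome mean of input, and all lie between 2.24 and 3.41 times the genome mean of ChIP tags.

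The density of peaks in Lrmda was 28 per Mb with melatonin (exact 95% Poisson interval 18.7 to 40.2) and 23.2 per Mb without (14.8 to 34.4). The rest of chromosome 14 held 2.74 and 2.69 per Mb, so that Lrmda stood 10.2-fold and 8.62-fold above its chromosome. Over all chromosomes the lists held 2.93 and 3.18 per Mb. The intervals of the 2 libraries in Lrmda overlapped widely. Melatonin peaks stood to untreated peaks as 1.21 to 1 in the body (exact interval 0.679 to 2.17) and 1.31 with the flanks (0.762 to 2.27), intervals that hold both 1 and the ratio of 0.921 over all chromosomes. At the authors' thresholds, a difference in number between the libraries was therefore not detectable in this gene. With a fold of at least 6 the counts were 12 with melatonin and 4 without in the body, and 14 and 4 with the flanks. Over the whole lists that fold was reached by 2317 melatonin peaks (30.1%) and 2017 untreated peaks (24.1%). These counts in Lrmda are small, and their difference was not tested.

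Over 1 Mb on either side, peaks were sparser than in Lrmda, although the melatonin peaks next to the gene were not, with 3 in the 100 kb before it (30 per Mb, interval 6.19 to 87.7). The 1 Mb before the gene held 10 melatonin and 2 untreated peaks, and the 1 Mb after it 8 and 6. On the left, Zfp503, Comtd1, A430057M04Rik, Vdac2, which encodes a mitochondrial channel, Samd8, Dusp13, Dupd1 and Ap3m1, which encodes a subunit of an adaptor complex for lysosome-related organelles such as melanosomes, held 0 peaks in both lists. These are short genes, of 3.05 to 48.2 kb, in which few peaks could fall. Kat6b, which encodes a histone acetyltransferase, held 2 melatonin and 0 untreated peaks in 173 kb, and Vcl, which encodes the cell adhesion protein vinculin, 1 and 0 in 104 kb.

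The large neighbours gave the closest comparison. Adk, the adenosine kinase gene of 396 kb to the left, held 2 and 2 peaks, or 5.05 per Mb in each list (interval 0.612 to 18.2). Kcnma1, which encodes a calcium-activated potassium channel and spans 713 kb to the right, held 2 and 3, or 2.81 (0.34 to 10.1) and 4.21 per Mb (0.868 to 12.3). The 236 kb between Lrmda and Kcnma1 held 6 melatonin and 3 untreated peaks. These are 25.4 (interval 9.32 to 55.3) and 12.7 per Mb (2.62 to 37.1), and both intervals overlapped those of Lrmda. The melatonin peaks were not spread evenly there. After the one that started 24 kb past the gene end, the next stood 130.4 kb past it. The 29.9 kb between Zfp503 and Lrmda held 2 and 0.

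Long genes held peaks more often than genes at large, and Lrmda ranked 54th in length among 21627 protein-coding genes. The 5 genes nearest to it in length held 0 to 6 peaks in either list. Gpc6, a glypican gene on the same chromosome, had 6 melatonin and 3 untreated peaks, Astn2 had 2 and 0, Sgcd, a sarcoglycan gene, had 2 and 1, and Cntn4 and Robo1, which encode neuronal adhesion and guidance proteins, had 0 and 0. Of the 58 other genes of 1 Mb or more, 25 held a melatonin peak and 25 an untreated peak. The highest counts among these were 16 with melatonin and 31 without. Of all 556 genes of 300 kb or more, 259 (46.6%) held a melatonin peak and 250 (45%) an untreated peak, where 6% and 5.78% of all protein-coding genes held one in the body or within 2 kb. These shares were not corrected for length, and a longer gene offers more sequence in which a peak can fall. Among the genes of 300 kb or more other than Lrmda the median was 0 per Mb in both lists. Pooled, they held 2.77 melatonin and 3.13 untreated peaks per Mb, close to the 2.93 and 3.18 over all chromosomes.

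By number of peaks, Lrmda ranked 1st in the melatonin list, ahead of Hdac9 with 22, and 2nd in the untreated list, behind Pard3b with 31. By density among genes of 300 kb or more it ranked 3rd with melatonin and 13th without. The order of the leading genes was not firm. Pard3b held 15.9 melatonin peaks per Mb (interval 9.11 to 25.9) and 30.9 untreated peaks per Mb (21 to 43.8), and both intervals overlapped those of Lrmda. Those of Hdac9, at 25.3 and 24.2 per Mb, overlapped as well. Immp2l, at 15 and 17.2 per Mb, Pde4d, at 11.5 and 13.1, and Sugct, at 11.9 and 23.9, completed the 5 that followed Lrmda in mean count.

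The genes of 300 kb or more with the most similar densities were found by the absolute difference in peaks per Mb, averaged over the 2 libraries. Samd12 on chromosome 15 came closest, with 27.8 melatonin and 23.8 untreated peaks per Mb, a mean difference of 0.425. Hdac9 followed at 1.84, then Rad51b, a gene of DNA repair, at 3.32, Dnm3, a dynamin gene, at 4.39, and Arhgap15 at 5.48. The counts behind these densities were 10 to 22 with melatonin and 11 to 21 without. None of the 5 lies on chromosome 14.

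**Figure D5:**
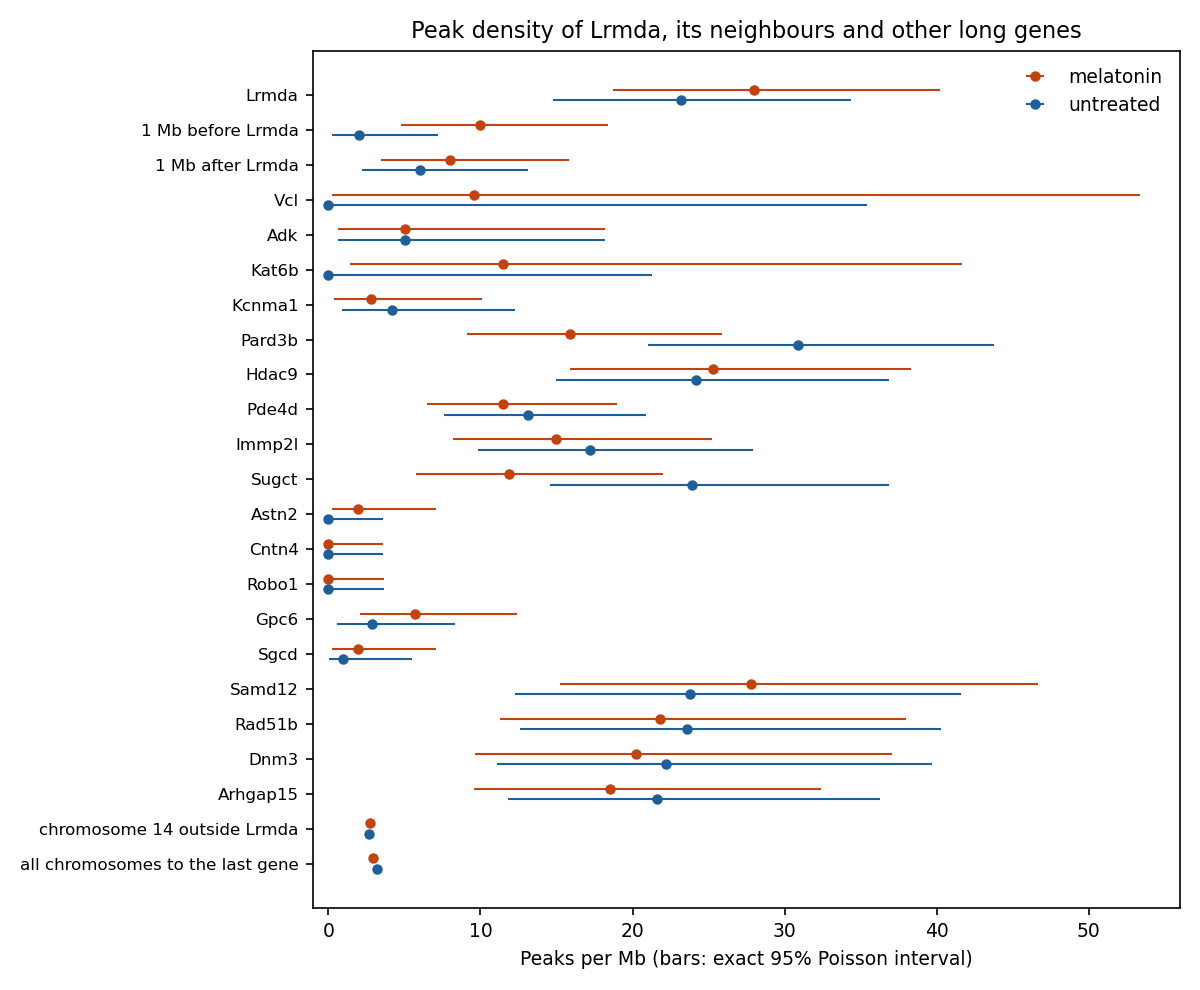
Peaks per Mb in Lrmda, the 1 Mb on either side, neighbouring genes of 104 kb or more, other long genes, the rest of chromosome 14 and all chromosomes, with the melatonin library above the untreated library in each row; bars are exact 95% Poisson intervals. Lrmda, at 28 and 23.2 per Mb, stands above Adk and Kcnma1 and above genes of its own length, and within the intervals of Hdac9 and Samd12.

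Peaks were about as frequent over other pigment genes as over all genes. Of 30 genes for melanin synthesis, melanosome formation and transport, not counting Lrmda, 2 held a melatonin peak, and another 2 an untreated peak, within the gene or 2 kb of it. Each count is 6.67% of the list, against 6% and 5.78% of all protein-coding genes. With melatonin these were Rab38, which encodes a small GTPase of melanosome formation (1 peak of 12.3 normalized tags, 7.61-fold), and Myo5a, which encodes the motor protein that carries melanosomes (2 peaks, of 12 and 13.8 normalized tags). Without melatonin they were Mitf, the main transcription factor of melanocytes (12.5 normalized tags, 6.04-fold), and Bloc1s5, which encodes a subunit of a complex for lysosome-related organelles (11.4 normalized tags, 4.81-fold). Tyr, Tyrp1, Dct, Oca2 and the other members had no peak in either list.

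The lists of cell type markers were too short to show a pattern, and a peak over a marker is no measure of its expression. Over all protein-coding genes, 6% held a melatonin peak and 5.78% an untreated peak. Of 8 MSC markers, 1 (Nt5e) held a melatonin peak and 2 (Lepr and Nt5e) an untreated peak. Of 3 haematopoietic markers, 1 (Ptprc) held a melatonin peak and 0 an untreated peak. Of 2 endothelial markers, 1 (Pecam1) held a melatonin peak and 0 an untreated peak. Of 4 melanocyte markers, 0 held a melatonin peak and 1, Mitf, an untreated peak.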

How the data were processed

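Per the file headers, HOMER findPeaks (histone style, windows of 1000 bp, no local filter) made one list per ChIP library against its own input, without pooling. Peaks had to exceed input 4-fold with a Poisson p of 1e-04. The submitters' processing notes also list BWA 0.7.13, Picard 1.126, MACS2 2.1.0 and mm39. No HOMER version is given in the sources used here.

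Per the file headers, normalized tags are a ChIP signal scaled to 10000000 tags per library. The ChIP and input tags were deposited as a signal with the deeper library scaled to the shallower. The fold is the authors' ratio of ChIP to input tags, the p-value is the authors' and unadjusted, and the score and the clonal ratio were deposited and not used. Region size, in bp, was also deposited.

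On chromosomes 3 and 7 the lists reach 159805034 and 145328623, past the ends of those chromosomes in mm39, and the share of peak midpoints in protein-coding genes was lowest at a shift of 0 kb (29.1% with melatonin and 27.8% without, against 38% and 35.9% at 50 kb). Coordinates were therefore read as GRCm38, with the RefSeq gene table of GRCm38.p6. It has no exons, so exons and introns were not separated. Chromosome spans ran to the last annotated gene. Apart from the promoter windows, no genome sequence was used.

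Overlap meant 1 bp or more. Counts have exact 95% Poisson intervals, shares and ratios exact binomial ones, which cover counting error only, since tags were not marked as separate molecules. With 1 library per condition, no test between conditions was run. Members and lists were chosen with earlier results of these data known. Genes were named by rule: neighbours within 1 Mb, overlapping genes, the 5 next in mean count, the 5 nearest in length, the 5 nearest in density and pigment genes with a peak. Peaks were named by highest fold, tags, lowest p and width, and at the ends and limits. Other peaks described along the gene were chosen after their values were seen. Counting was tested on simulated peaks in 200 genes. Python 3.11.15, numpy, pandas and scipy were used.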

Additional observations from a re-analysis of the deposited data

How the results depend on the processing

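Of 76 values recomputed under other settings, 70 kept to the range set by counting error or, for counts, to within 1.5-fold. Part of these could not have moved. Only the differences in number of peaks between the libraries could change sign, and none did. The setting of at least 1 input tag removed no peak of Lrmda, so its counts could not move. Lists of equal size hold 7699 peaks, the whole melatonin list, so the melatonin counts and density could not move either. ChIP tags as scaled for input are a constant multiple of normalized tags within a list, so their ratio to the rest was fixed. With a fold over input of at least 6, the peaks in and within 100 kb of Lrmda numbered 14 with melatonin and 4 without, the density of the gene body was 11.6 and 3.86 per Mb, and the median distance of a melatonin peak to the nearest untreated peak was 277 kb. By construction this setting keeps fewer peaks, 2317 in the whole melatonin list and 2017 in the whole untreated list. Lrmda then ranked 1st in the melatonin list and 10th in the untreated list by number of peaks, and stood 12.8-fold and 6.04-fold above the rest of chromosome 14. With 10 kb on either side of each gene, 4 pigment genes held a melatonin peak, where 8.89% of all genes did. The number of overlapping peaks in Lrmda was 0 under every threshold and overlap rule tried. The thresholds only remove peaks and the other overlap rule is stricter, so none of these could raise a count of 0. A distance of up to 1 kb could have raised it, and also gave 0. Moving the gene position by 50 kb either way, chosen after seeing the data because the processing notes name another build, gave 35 and 35 melatonin peaks and 25 and 26 untreated peaks. No paired analysis was possible because each condition had 1 library. Depth limits the lists through the tag thresholds of 18 and 17 per window, and 1 library per condition leaves the spread between cultures unknown.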
